A study of Homo sapiens with 10 samples.

Results

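A set of 9 genes for readers and writers of acetylated lysine, BRD2, BRD3, BRD9, EP300, CREBBP, KAT2A, KAT2B, KAT6A and KAT6B, was followed in SNU398, an established human line labelled as hepatocellular carcinoma. They were taken by symbol from the raw counts, where all 9 were found among 56303 symbols, and all 9 passed the filter on low counts that left 25807 genes to test. RNA-seq of total RNA covered 2 libraries of cells transduced with a single hairpin against the zinc finger protein SALL4 (SALL4KD) and 2 of cells with a scrambled hairpin (scramble) with RNA extracted 72 hours after transduction in both. SALL4 binding in SNU398 nuclei, for which the labels name no transduction, was mapped in 3 CUT&RUN libraries, in which an antibody brings a nuclease to the bound protein, and the deposited list of common regions joins their peaks. IgG controls, also 3 libraries, were not analysed here. Nothing in the labels ties the replicates to separate cultures. The p-values therefore speak only to library-to-library spread, and part or all of it may be technical.

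Histone acetyltransferases place acetyl groups on lysines of histone tails, and bromodomains bind the acetylated lysine. BRD2 and BRD3 belong to the BET family, which carries paired bromodomains and an extraterminal domain and links acetylated chromatin to transcription elongation, while BRD9 is a bromodomain subunit of the noncanonical BAF remodelling complex and no BET protein. EP300 and CREBBP are paralogous coactivators that acetylate H3K27 at enhancers. KAT2A (GCN5) and KAT2B (PCAF) are the alternative catalytic subunits of SAGA and ATAC, and KAT6A (MOZ) and KAT6B (MORF) those of the complex that also holds BRPF1, ING5 and MEAF6.

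Library totals ran from 158934493 counts in scramble replicate 2 to 225624957 counts in SALL4KD replicate 2. A second deposited set of counts for the same libraries, the combined matrix, had totals from 97876641 to 134506309. It was used only as an alternative. The hairpin's target SALL4 had 21.6 and 18.7 CPM (counts per 1e+06 counts of the scaled library) under SALL4KD against 74.5 and 58.7 CPM under scramble, a log2 fold change of -1.72 with an SE of 0.19 (adjusted p = 5.84e-06 by edgeR). Of 11 hepatocyte and hepatoma markers 10 stayed under 1 CPM in every library, among them ALB, AFP, HNF4A, KRT8 and KRT18, and GPC3 was the exception at 13.7 to 20.0 CPM. The 4 fibroblast markers summed to 796 to 907 CPM, nearly all of it COL3A1 at 768 to 887 CPM. Leukocyte markers (4) and endothelial markers (4) all stayed under 1 CPM in every library, with CD3E at 0 throughout. In bulk RNA, fewer cells that express a gene and less RNA of it per cell cannot be told apart.

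One member stood out in the binding data. KAT6B carried 13 common SALL4 regions within 3 kb of its span, and BRD2, BRD3, BRD9, EP300, CREBBP, KAT2A, KAT2B and KAT6A carried 0. Over all 20033 protein-coding genes 15.2% had at least 1 common region, so that 1 of 9 members with a region is no larger share than in genes at large. The number of regions over KAT6B was what differed: 35 of the 20033 genes had more. KAT6B lies on chromosome 10 from 74824936 to 75032624 (hg38, plus strand, span 207.7 kb). Of 975 other genes with a span within 25% of this, 34.8% had a common region, and 4 had 13 or more.

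The RefSeq promoter windows of the members, each from 250 bases before to 50 after an annotated start (GRCh38.p14), show what sequence the SALL4 peaks left uncovered at the gene starts. Windows were given for 8 of the members, 15 in all. Shown are the KAT6B start nearest to a common region, and the outermost starts of CREBBP and BRD2, the members with the lowest p-values in the RNA comparison below. Capitals mark CpG dinucleotides.
KAT6B, chr10:74826350-74826649, plus strand: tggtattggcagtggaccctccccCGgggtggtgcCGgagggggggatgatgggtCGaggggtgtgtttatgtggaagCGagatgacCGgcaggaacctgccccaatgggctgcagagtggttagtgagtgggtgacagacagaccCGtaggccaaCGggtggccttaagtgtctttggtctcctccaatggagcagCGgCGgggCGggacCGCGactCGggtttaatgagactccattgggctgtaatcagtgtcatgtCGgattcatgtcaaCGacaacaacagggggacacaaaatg
CREBBP, chr16:3880664-3880963, minus strand: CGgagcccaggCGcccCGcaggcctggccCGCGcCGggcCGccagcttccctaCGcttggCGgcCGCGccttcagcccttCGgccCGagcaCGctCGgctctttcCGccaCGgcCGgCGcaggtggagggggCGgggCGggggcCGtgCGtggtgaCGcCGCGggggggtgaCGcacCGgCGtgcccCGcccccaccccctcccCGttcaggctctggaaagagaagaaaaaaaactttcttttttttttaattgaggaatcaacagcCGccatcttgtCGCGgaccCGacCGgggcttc
BRD2, chr6:32968344-32968643, plus strand: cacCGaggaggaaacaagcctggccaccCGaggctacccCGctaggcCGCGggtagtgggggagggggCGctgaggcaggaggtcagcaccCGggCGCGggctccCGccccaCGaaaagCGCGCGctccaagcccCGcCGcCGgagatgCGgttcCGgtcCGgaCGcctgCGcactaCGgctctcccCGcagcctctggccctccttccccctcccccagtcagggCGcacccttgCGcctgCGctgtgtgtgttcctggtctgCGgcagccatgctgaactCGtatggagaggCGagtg

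The KAT6B window held 15 CpG at 58.7% GC, the CREBBP window 36 at 70.3% and the BRD2 window 30 at 71.7%, where the median over 35116 RefSeq windows was 14 CpG and 58.7% GC. None of the 15 member windows overlapped a peak of any SALL4 library, while 5.18%, 9.20% and 10.4% of all windows overlapped a peak of libraries 1, 2 and 3. Peaks did lie close to the KAT6B windows. Library 2 had peak midpoints at -0.44, -0.31 and 1.07 kb from the first base of the KAT6B span. Library 3 had them at -0.76, -0.23 and 0.88 kb. The AT-rich letters AATATT, which read the same on both strands, were in none of the 15 windows and in 6.96% of all windows, which says only that these letters are not in these 300 bases.

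At KAT6B the first common region began 146 bp downstream of the last of the 3 annotated starts, at 74826746, and ended at 74829868. Libraries 1, 2 and 3 had 1, 3 and 4 peaks in it. A further 3 regions followed, with midpoints at 26.7, 37.3 and 72.0 kb from the first base of the span, with 3 to 4 merged peaks each. Then came 6 regions between 74951298 and 74991677, a stretch of 40.4 kb that was singled out after its position had been seen. It held 81 of the 117 merged peaks of the 13 regions. Its densest region, from 74969435 to 74975456, held 10, 7 and 6 peaks of libraries 1, 2 and 3. The deposited list gives 21 merged peaks for this region, a different count from that of the library peaks overlapping it. Of the 11201 common regions genome-wide, 150, itself included, merged as many or more. The last 3 regions had midpoints at 184.2, 196.8 and 206.9 kb, and the last one ran across the end of the gene. Together the regions covered 22.1% of the span. The gene table used here gives spans without exons, so the regions can be placed inside the gene but not in exons or introns.

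**Figure D1:**
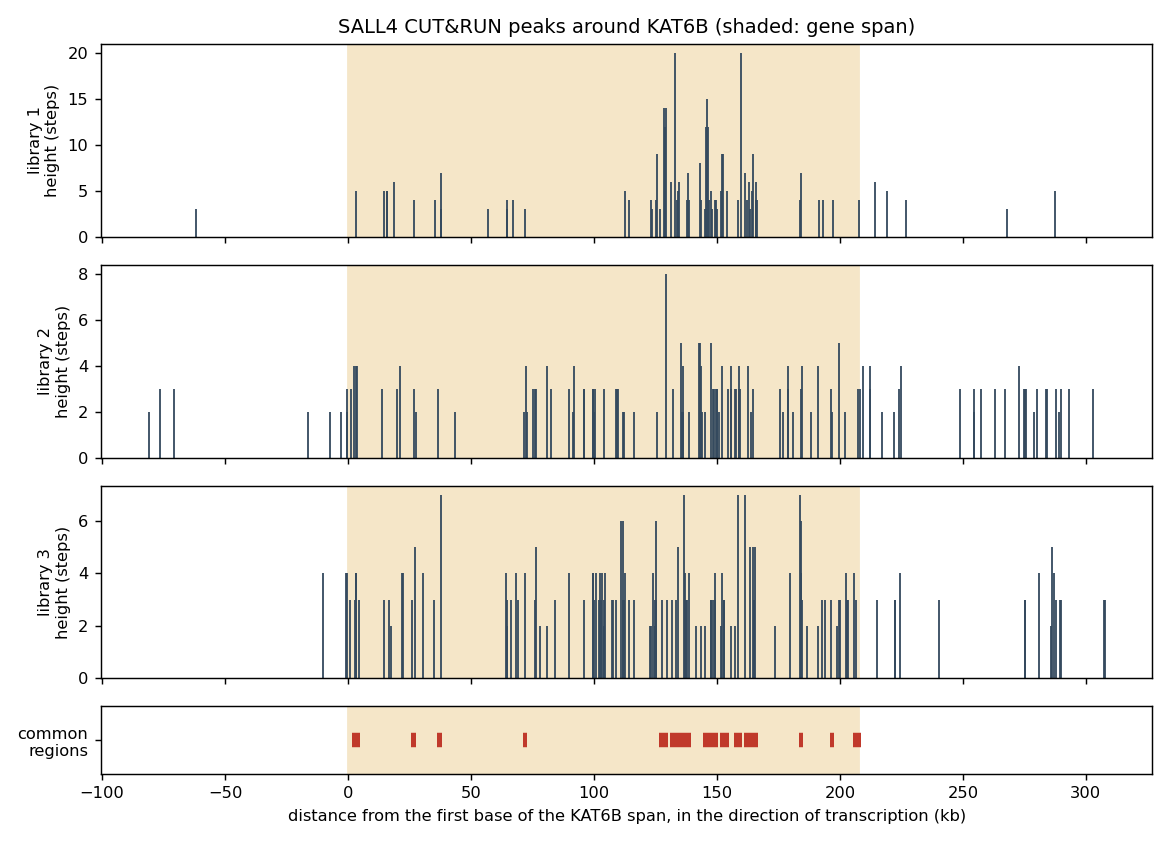
Peaks of the 3 SALL4 CUT&RUN libraries around KAT6B by distance from the first base of its span (x axis, kb, shaded over the span) and by height in steps of each library's signal (y axis), with the common regions as bars in the lowest track. In library 1 peaks crowd around the regions with midpoints from 128.2 to 163.8 kb and reach 20 steps, while the highest peaks of libraries 2 and 3 reach 8 and 7 steps.

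Each library alone was denser in peaks over KAT6B than over protein-coding genes as a whole. Library 1 had 66 peaks within 3 kb of the gene, library 2 had 86 and library 3 had 109, or 30.9, 40.2 and 51.0 per 100 kb. Over all protein-coding genes the libraries had 2.83, 14.8 and 11.4 peaks per 100 kb. Density was lower on both sides of the gene: in the 250 kb before the span it was 3.2, 14.4 and 9.60 per 100 kb, and in the 250 kb after it 6.0, 24.4 and 12.0. Among 3356 protein-coding genes with spans of at least 100 kb, KAT6B included, 3 had as high a density or higher in library 1, 94 in library 2 and 13 in library 3. Heights are the authors' values in whole steps of 2.88, 2.64 and 3.30 signal units. The median peak over KAT6B was 4.5 steps high in library 1 and 3 steps in libraries 2 and 3, against 4, 3 and 3 steps over all peaks of the library. Median heights over KAT6B were thus close to those of all peaks. In 2 of the 13 regions, the one from 74969435 to 74975456 and the one from 75008229 to 75010105, the 3 libraries shared at least 1 covered base, and in the other 11 regions no base was covered by all 3.

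**Figure D2:**
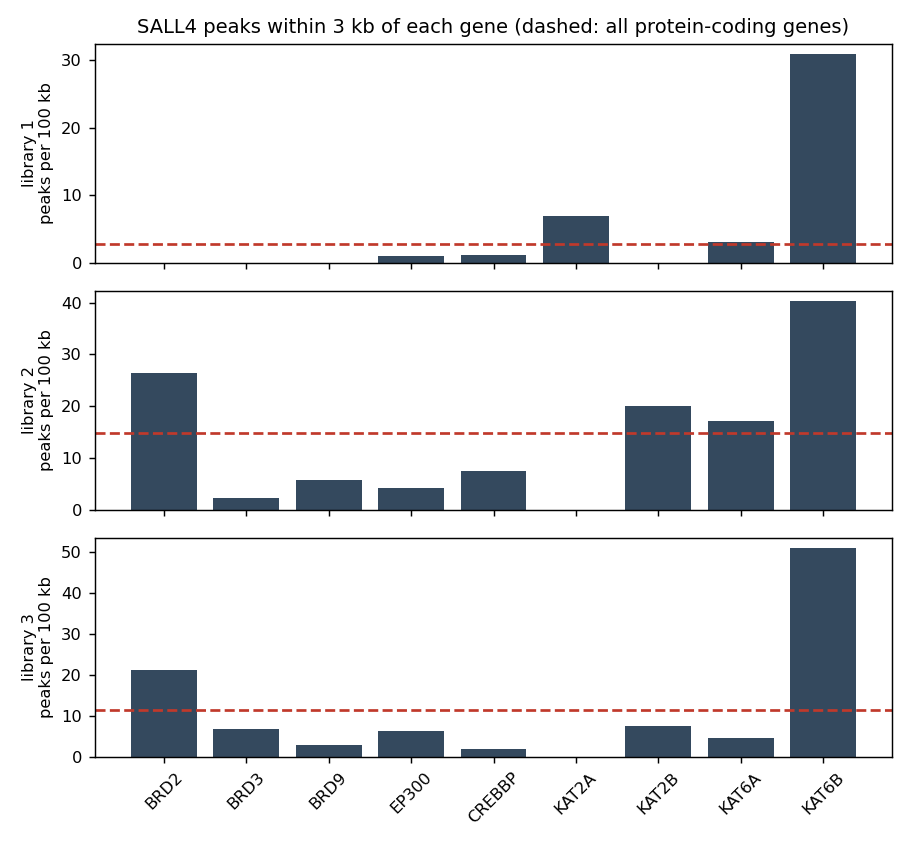
Peaks per 100 kb (y axis) within 3 kb of each of the 9 genes (x axis) in the 3 SALL4 libraries, as bars from 0, with the value over all protein-coding genes as a dashed line. KAT6B is above the line in all 3 libraries, at 30.9, 40.2 and 51.0, while no other member is above it in all 3.

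Its paralog KAT6A (chromosome 8, 41929479 to 42051987) had 4, 22 and 6 peaks, or 3.11, 17.1 and 4.67 per 100 kb, and its nearest common region was 55.1 kb away. KAT2B (chromosome 3, 20040446 to 20154404) had 0, 24 and 9 peaks with the nearest common region at 108.7 kb, and its paralog KAT2A (chromosome 17, 42113111 to 42121367) had 1, 0 and 0 with the nearest at 424.0 kb. Both coactivators were sparse in peaks: EP300 (chromosome 22, 41092592 to 41180077) had 1, 4 and 6 and CREBBP (chromosome 16, 3725054 to 3880713) had 2, 12 and 3, which put both below the protein-coding level in every library. CREBBP was also the member farthest from a common region, at 1273 kb. Among the readers, BRD2 (chromosome 6, 32968594 to 32981505) had 0, 5 and 4 peaks, BRD3 (chromosome 9, 134030305 to 134068548) had 0, 1 and 3, and BRD9 (chromosome 5, 863741 to 892801) had 0, 2 and 1. Over the short span of BRD2 this made 26.4 and 21.2 peaks per 100 kb in libraries 2 and 3, above the protein-coding level there. BRD3 and BRD9 were below the protein-coding level in every library, as EP300 and CREBBP were. BRD9 came closest to a common region, at 15.6 kb. Of genes with a similar span, 7.38% (KAT2A) to 27.7% (CREBBP) had a common region, so 0 was the usual number for these 8 genes.

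The number of members with a region differed between lists. In a list rebuilt from all 3 libraries by merging peak centres within 1000 bp, an alternative chosen after seeing the data, 2 members had a region, KAT6B with 16 and KAT6A with 1, and 19.8% of protein-coding genes had one. Lists rebuilt by the same rule from 2 libraries hold more regions. Without library 1 there were 5 members with a region beside 54.2% of protein-coding genes, without library 2 there were 2 beside 28.7%, and without library 3 there were 2 beside 30.6%. KAT6B had 35, 25 and 19 regions in these lists and KAT6A 3, 1 and 3. More regions than over KAT6B were found over 42 protein-coding genes in the list rebuilt from all libraries and over 141, 30 and 60 without libraries 1, 2 and 3.

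The RNA comparison asked whether these genes changed when SALL4 was lowered. None of the 9 members was called higher or lower by edgeR at an adjusted p under 0.05, where 2.31% of all genes tested were called higher and 3.25% lower. At an unadjusted p under 0.05 there were 2 of 9 (BRD2 and CREBBP), against 18.1% of all genes, and DESeq2 called 0 of 9, against 9.79%. The median log2 fold change of the members was 0.14 and that of all genes 0.00, with 7 of 9 members and 50.2% of all genes above 0. In 3 members (BRD2, EP300 and CREBBP) both knockdown libraries lay above both scramble libraries, as in 24.2% of all genes, and in 2 (BRD9 and KAT2A) below, as in 22.9%. The members' counts of non-overlapping genes are close to these shares.

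**Figure D3:**
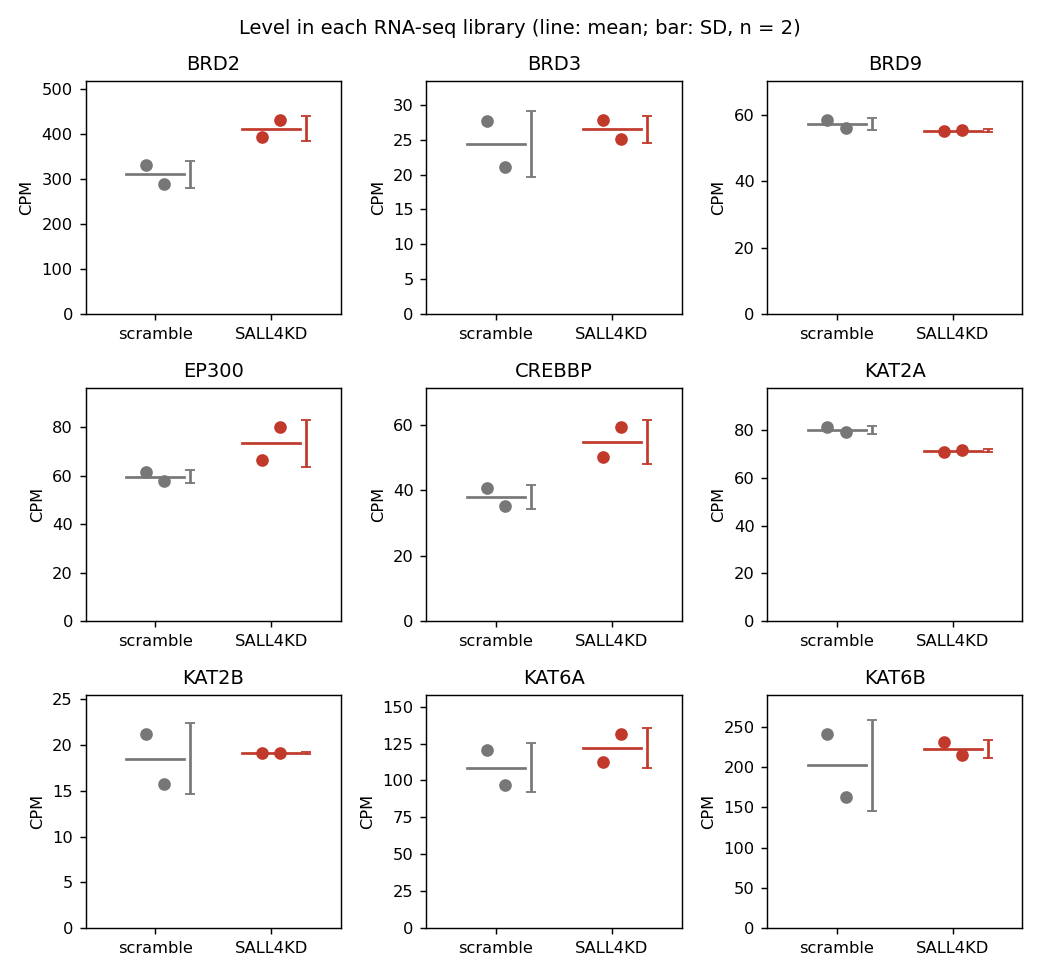
Level of each of the 9 genes in the 4 RNA-seq libraries (y axis, CPM from 0, own scale per panel) for scramble and SALL4KD, with points for libraries, a line for the mean and a bar for the SD (n = 2). BRD2, EP300 and CREBBP have both knockdown libraries above both scramble libraries, and KAT6B spreads from 163 to 242 CPM within scramble.

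Among the BET genes, BRD2 had 393 and 431 CPM in SALL4KD replicates 1 and 2 against 331 and 289 CPM in scramble replicates 1 and 2. The lower knockdown library was above the higher scramble library, and the log2 fold change came to 0.41 (SE 0.19; by edgeR, adjusted p = 0.235). BRD3 had 27.8 and 25.1 CPM against 27.7 and 21.1 CPM, so that the groups overlapped (log2 fold change 0.12, SE 0.20; by edgeR, adjusted p = 0.841), and the sign turned without scramble replicate 2, to -0.054. BRD9 had 55.0 and 55.5 CPM against 58.4 and 55.9 CPM, a log2 fold change of -0.05 (SE 0.18; by edgeR, adjusted p = 0.939).

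For the coactivators, CREBBP had 50.03 and 59.3 CPM under SALL4KD against 40.5 and 35.2 CPM under scramble. This was the largest log2 fold change of the 9, 0.53 (SE 0.19; by edgeR, adjusted p = 0.0988), and both knockdown values lay above both scramble values. EP300 had 66.4 and 80.2 CPM against 61.4 and 57.7 CPM, again without overlap, at 0.30 (SE 0.18; by edgeR, adjusted p = 0.413). The log2 fold change of EP300 was 0.15 without knockdown replicate 2 and 0.43 without knockdown replicate 1. In both genes, and in BRD2, knockdown replicate 2 was the highest library and scramble replicate 2 the lowest. These were also the libraries with the most and the fewest counts, and a link to depth was not tested. In the authors' deposited table, which is labelled as 3 libraries a group where 2 a group were analysed here, and where 37% of 15141 genes have an adjusted p under 0.05, these 3 are the members below that threshold: CREBBP at a log2 fold change of 0.51 (adjusted p = 0.00169), BRD2 at 0.38 (0.00117) and EP300 at 0.29 (0.0268).

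Turning to the SAGA and ATAC enzymes, KAT2A had 71.2 and 71.9 CPM under SALL4KD against 81.6 and 79.2 CPM under scramble. Its replicates lay closer together than its groups, but the difference was small (log2 fold change -0.17, SE 0.18; by edgeR, adjusted p = 0.701). KAT2B had 19.1 and 19.2 CPM against 21.3 and 15.8 CPM, with the knockdown values between the scramble values (0.05, SE 0.20; by edgeR, adjusted p = 0.951). Without scramble replicate 2 its sign turned, to -0.14.

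The MOZ and MORF enzymes overlapped between groups as well. KAT6A had 112 and 132 CPM under SALL4KD against 120.3 and 96.8 CPM under scramble (log2 fold change 0.17, SE 0.18; by edgeR, adjusted p = 0.723). Leaving out scramble replicate 2 or knockdown replicate 2 took its log2 fold change to 0.030 and 0.038, and leaving out knockdown replicate 1 or scramble replicate 1 took it to 0.28 and 0.33. KAT6B, the gene with the 13 common regions, had 231 and 215 CPM against 242 and 163 CPM (0.14, SE 0.20; by edgeR, adjusted p = 0.803). Both knockdown values of KAT6B lay between its scramble values, and the 2 scramble libraries were farther apart than the group means (223 CPM in SALL4KD, 202 CPM in scramble). Without scramble replicate 2 the log2 fold change of KAT6B was -0.11 and without scramble replicate 1 it was 0.45 (edgeR adjusted p = 0.928 and 0.446). A change of KAT6B RNA was therefore not detectable with these libraries in either direction. Reads of overlapping genes cannot be told apart, since the strand setting is not given in the sources used here, and RefSeq genes overlap 7 of the 9 members, all but BRD2 and KAT2A. They are BRD3OS and LOC100130548 at BRD3, KAT6A-AS1 and LOC124900271 at KAT6A, LOC128966726 at BRD9, RNU6-375P at EP300, DPPA3P6 at CREBBP, MIR3135A at KAT2B and SNORD172 at KAT6B.

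The 4 paralog pairs were then compared within each library, by the log2 ratio of their counts, which does not depend on depth or scaling. With 2 libraries against 2 the exact permutation test cannot give a p below 0.333, the value that any pair without overlap gets. Groups without overlap are common: among single genes tested 24.2% lay higher and 22.9% lower without overlap. The share over other gene pairs was not computed. EP300 to CREBBP stood at 0.41 and 0.43 under SALL4KD against 0.60 and 0.71 under scramble, a difference of -0.23 in favour of CREBBP without overlap (exact permutation p = 0.333, 0.444 adjusted over the 4 pairs, two-sided). BRD2 to BRD3 stood at 3.82 and 4.0995 against 3.58 and 3.78, a difference of 0.28, also without overlap (exact permutation p = 0.333). Of this difference 0.14 was left without knockdown replicate 2. The combined matrix gave 0.18 for this pair. KAT2A to KAT2B stood at 1.90 and 1.91 against 1.94 and 2.33, a difference of -0.23, again without overlap (exact permutation p = 0.333). It shrank to -0.04 without scramble replicate 2. KAT6A to KAT6B stood at -1.04 and -0.71 against -1.01 and -0.75 and did not separate the groups (difference 0.01; exact permutation p = 1.0). These are the genes with 0 and 13 common SALL4 regions. In that pair replicate 1 libraries resembled each other across groups, and so did replicate 2 libraries.

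**Figure D4:**
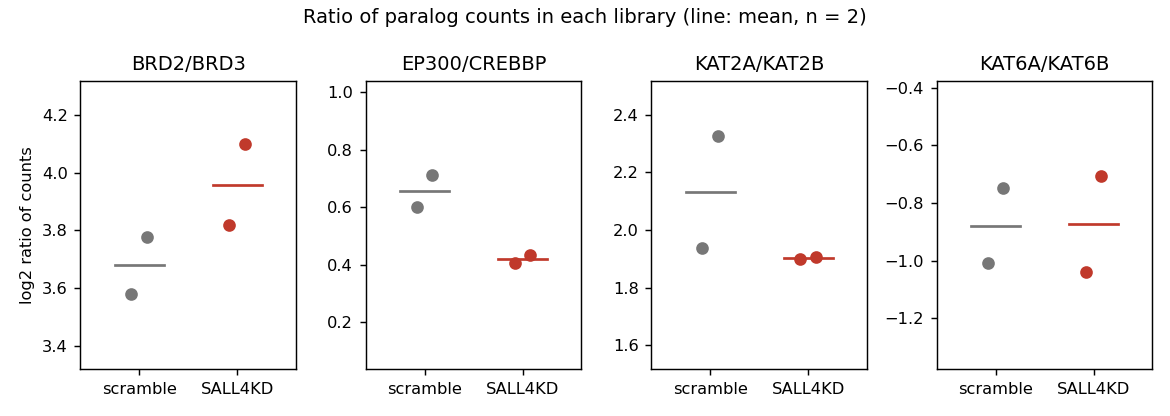
Log2 ratio of the counts of 4 paralog pairs (y axis, each panel 1 log2 unit tall) in the scramble and SALL4KD libraries, with points for libraries and a line for the mean (n = 2). EP300 to CREBBP and KAT2A to KAT2B are lower in both knockdown libraries, and BRD2 to BRD3 is higher in both. KAT6A to KAT6B overlaps between groups. Separation of 2 libraries from 2 cannot give an exact permutation p below 0.333.

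Because no member was called, likeness was sought for the member with the lowest p. Among 11627 other protein-coding genes at 1 CPM or more, the 3 whose centred log2 CPM over the 4 libraries lay closest to CREBBP were OTUD7B, RPRD2 and COQ5, at distances of 0.035, 0.036 and 0.036 on the log2 scale. OTUD7B, a deubiquitinase, had 98.7 and 116 CPM under SALL4KD against 81.7 and 69.0 CPM under scramble. The distances are a description over 4 libraries.

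Around the 9 genes, 189 other genes of lysine acetylation were listed by role, of which 188 were tested, 5 rose and 3 fell, or 4.26% together against 5.55% of all genes. Among 30 other bromodomain genes tested 1 rose and none fell. CECR2, a subunit of ISWI-type remodelling complexes, had 34.3 and 46.8 CPM under SALL4KD against 21.98 and 20.7 CPM under scramble. Its log2 fold change was 0.93 (SE 0.20, edgeR adjusted p = 0.00510). Of the 10 alternatives, the call of CECR2 was lost only without knockdown replicate 2 (log2 fold change 0.68). With the replicate term its edgeR adjusted p was 2.18e-10.

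Of 17 genes listed as other acetyltransferases and coactivators 1 rose and 1 fell. NCOA2, a nuclear receptor coactivator that binds EP300 and CREBBP, had 144 and 153 CPM under SALL4KD against 85.5 and 75.6 CPM under scramble (log2 fold change 0.88, SE 0.18; by edgeR, adjusted p = 0.00359) and was called in all 10 alternatives run. CLOCK, the circadian transcription factor, had 29.3 and 28.9 CPM against 52.8 and 39.2 CPM (-0.66; by edgeR, adjusted p = 0.0421). The call of CLOCK was lost with the filter of 5 CPM (edgeR adjusted p = 0.0765) and with the combined matrix (0.0623). With the replicate term its edgeR adjusted p was 2.04e-05. CLOCK was also not called without knockdown replicate 1, knockdown replicate 2 or scramble replicate 1 (log2 fold change -0.67, -0.66 and -0.43). None of 4 YEATS-domain readers was called by edgeR (2 with unadjusted p below 0.05 and 0 by DESeq2). Over all genes the edgeR share with unadjusted p below 0.05 was 18.1%, and DESeq2 called 9.79%. MLLT1 stood at a log2 fold change of 0.48 and MLLT3 at 0.42, and all 4 YEATS genes were above 0.

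None of 27 SAGA and ATAC subunits was called by edgeR (6 with unadjusted p below 0.05 and 1 by DESeq2), with TAF12 at a log2 fold change of 0.60 (adjusted p = 0.0658) and POLE4 at 0.51 (0.101) lowest in p. None of 25 subunits of the MOZ/MORF, HBO1, NuA4 and MSL/NSL complexes was called (7 with unadjusted p below 0.05 and 2 by DESeq2). Lowest in p were PHF20 at -0.57 (edgeR adjusted p = 0.0631) and EP400 at -0.58 (0.0673). Such counts stand beside 18.1% of all genes with an unadjusted p below 0.05 and 9.79% called by DESeq2. Of 14 partners of BRD9 in noncanonical BAF, SMARCC1 rose, from 143.8 and 114.1 CPM to 190.3 and 209.1 CPM (0.63, SE 0.18; by edgeR, adjusted p = 0.0426). The call of SMARCC1 was lost whichever library was left out (log2 fold change 0.48 to 0.81). It was also lost with the combined matrix (edgeR adjusted p = 0.0608). With the replicate term the edgeR adjusted p of SMARCC1 was 7.51e-04. Among 18 genes of P-TEFb and its regulators NELFB, a subunit of the negative elongation factor, fell from 71.5 and 82.6 CPM to 44.2 and 54.5 CPM (-0.64, SE 0.18; by edgeR, adjusted p = 0.0387). The call of NELFB was lost with the filter of 5 CPM (edgeR adjusted p = 0.0583) and with the combined matrix (0.0623). With the replicate term its edgeR adjusted p was 4.94e-05. NELFB was also not called without knockdown replicate 1, scramble replicate 1 or scramble replicate 2 (log2 fold change -0.50, -0.75 and -0.53). None of 16 partners and inhibitors of EP300 and CREBBP was called (5 with unadjusted p below 0.05 and 1 by DESeq2), with ANP32A at 0.58 and EID2B at 0.70.

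On the opposing side, 2 of 24 deacetylase and corepressor genes rose and none fell, where 2.31% of all genes tested rose and 3.25% fell. The median log2 fold change of these 24 genes was 0.01, with 13 of them above 0. HDAC5, a class IIa deacetylase, went from 13.7 and 19.7 CPM in the scramble libraries to 44.3 and 57.3 CPM in the knockdown libraries, a log2 fold change of 1.61 (SE 0.21; by edgeR, adjusted p = 6.57e-05), and was called in all 10 alternatives run. RCOR3, a corepressor of the CoREST family, had 47.7 and 47.4 CPM under SALL4KD against 30.8 and 25.5 CPM under scramble (0.76, SE 0.19; by edgeR, adjusted p = 0.0151). That call was lost without knockdown replicate 1, knockdown replicate 2 or scramble replicate 2 (log2 fold change 0.75, 0.75 and 0.64). With the replicate term the edgeR adjusted p of RCOR3 was 2.47e-07. In the supply of acetyl-CoA, 1 of 15 genes fell: CRAT, carnitine acetyltransferase, had 0.697 and 1.04 CPM against 1.45 and 3.29 CPM. Its log2 fold change was -1.44 (SE 0.37, edgeR adjusted p = 0.0333). CRAT did not pass the filter of 5 CPM, and its call was lost with the combined matrix (edgeR adjusted p = 0.0621). With the replicate term its edgeR adjusted p was 5.64e-07. CRAT was also not called without knockdown replicate 1 or scramble replicate 2 (log2 fold change -1.18 and -0.72). The median of the acetyl-CoA list was -0.34, with 3 of 15 genes above 0, against 0.00 for all genes.

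**Figure D5:**
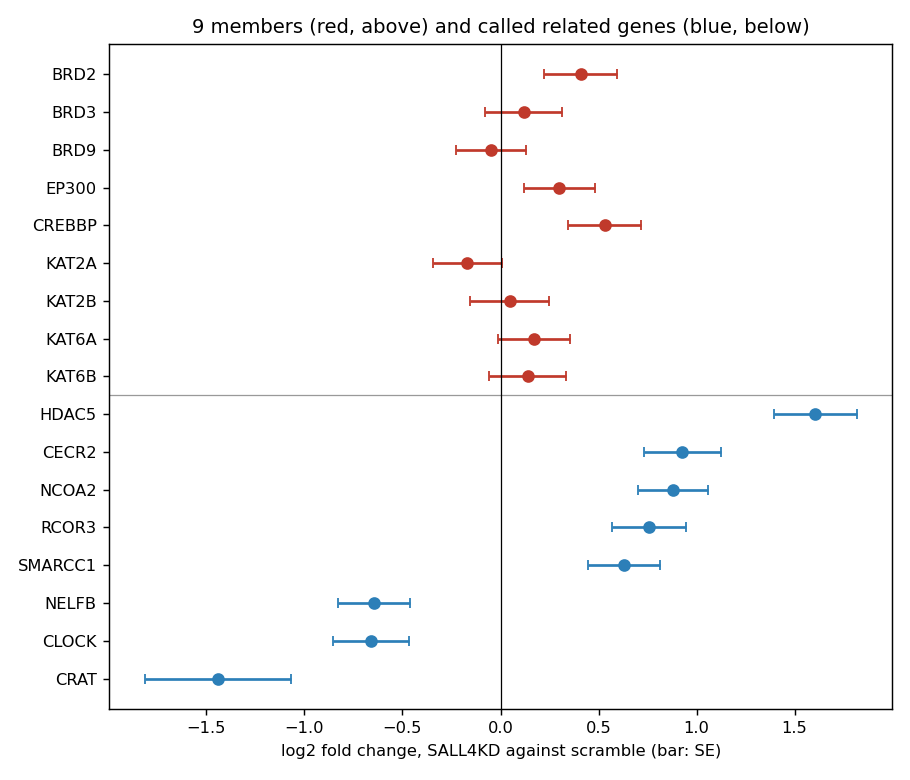
Log2 fold change of SALL4KD against scramble (x axis, bars are SE) for the 9 members (red) and the 8 related genes called by edgeR (blue). The members lie between -0.17 and 0.53, inside the range of the called genes, which runs from -1.44 to 1.61.

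Common SALL4 regions lay within 3 kb of 33 of the 189 related genes, or 17.5%, beside 15.2% of all protein-coding genes. SUPT3H, a SAGA subunit with a span of 568.9 kb, had 6 regions, and ACSS3, BAZ2B, MBIP and PHIP had 4 each. No related gene reached the count of 13 of KAT6B, but the spans differ. MBIP had its 4 regions over a span of only 22.1 kb, against 207.7 kb for KAT6B, and so carried more regions for its length. Of the 8 related genes called in the RNA data 1 had a region, RCOR3.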

How the data were processed

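RNA-seq and SALL4 CUT&RUN libraries of SNU398 were analysed. Raw counts by gene symbol stand in the RNA files as deposited. The submitters' processing notes name STAR, featureCounts, DESeq2, BWA 0.7.17-r1188, SEACR 1.1 and HOMER 4.10 and the build hg38 without settings. The deposited peak lists, in the SEACR layout, give the total and highest signal per peak, and its scaling is not given in the sources used here. From the comparison table, whose columns are named as in limma output, the authors' log2 fold change and p-values were used, while the authors' score columns (moderated t, log odds) were not.

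Low counts were removed by filterByExpr, TMM gave the scaling, and the robust quasi-likelihood test of edgeR 4.0.16 under R 4.3.3 compared the groups with no other term. Adjustment was by Benjamini-Hochberg over all 25807 genes, at a threshold of 0.05, and the code was tested on simulated data. An SE is the log2 fold change divided by the root of F. Of the related genes 2 were matched through older symbols (GLTSCR1 for BICRA and GLTSCR1L for BICRAL), and BRDT was not tested because of low counts. A further gene is not reported here and was left out of the related lists. Common regions were assigned to RefSeq spans (GRCh38.p14) with 3 kb on both sides and 1 bp of overlap. Ratios used a pseudocount of 0.5 and SciPy 1.17.1. Counting error is small at this depth, and the spread between libraries limits precision. Named genes are the 9 members, SALL4, related genes called (up to 6 a list), or the 2 lowest p where none was, and 3 genes nearest to 1 member. Alternatives were scaling, filters, DESeq2 1.42.0, a replicate term, the combined matrix, each library left out, and region rules. The members, lists and tests were chosen with earlier results of these data known.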

Additional observations from a re-analysis of the deposited data

How the results depend on the processing

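None of the 9 members was called lower by edgeR or DESeq2 under any of the 10 alternatives, and none higher under 9 of them. With the replicate block 1 was called higher, CREBBP (log2 fold change 0.53, adjusted p = 9.68e-04). Same-numbered libraries deviated together (correlation 0.24 across 25807 genes), but with 2 pairs and no shared batch in the labels the block was not the main model. It also gave 2309 genes higher and 2612 lower, 19.1% of those tested, and 35 related genes higher and 14 lower. With the filter of 5 CPM 294 genes were higher, 437 lower and 0 related genes lower, and with the combined matrix 0 related genes were lower. Without a filter 9 related genes were higher, and with DESeq2 8 were higher and 5 lower. Leaving out 1 library gave 308 to 408 genes higher and 492 to 783 lower, and 2 to 5 related genes higher and 0 to 2 lower. Log2 fold changes that turned sign were those without scramble replicate 2 of BRD3 (-0.054), KAT2B (-0.14) and KAT6B (-0.11), where leaving out 1 library gave up to 0.33, 0.28 and 0.45. Differences of paralog ratios without 1 library ranged from 0.14 to 0.42 for BRD2 to BRD3, -0.29 to -0.18 for EP300 to CREBBP, -0.43 to -0.04 for KAT2A to KAT2B and -0.16 to 0.17 for KAT6A to KAT6B. Lists rebuilt without 1 CUT&RUN library gave 2 to 5 members with a region, and the list rebuilt from all 3 libraries, chosen after seeing the data, gave 2. On the deposited list KAT6B had 13 regions for both other flanks and for a stricter overlap with the gene. It had 7 where every library had a peak above its median height and 2 where all 3 libraries met. No other member had a region under these rules. Apart from the wider flank, the rules could only take regions away, so they could not have given another member one. The cause of these changes was not tested.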
